A study of Mus musculus with 45 samples.

Results

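Nodal is a secreted signal of the TGF-β superfamily that keeps the epiblast competent and patterns it into germ layers in the early mouse embryo. It is cut to its active form by proprotein convertases, binds type I and type II activin receptors together with an EGF-CFC coreceptor, and acts through Smad2, Smad3, Smad4 and Foxh1. Its targets include its own gene and the genes of its secreted inhibitors, the Lefty proteins, and lowering of Nodal signalling is a known step in the passage from epiblast to neural tissue. Retinoic acid (RA), a vitamin A derivative that gives neural tissue a more posterior identity, was the treatment applied here.

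The 7 genes described here were those of 54532 in the gene count table whose Ensembl identifiers map to the symbols Nodal, Gdf3, Tdgf1, Acvr2b, Pcsk6, Lefty1 and Lefty2. They hold 2 ligands (Nodal and Gdf3), the coreceptor Tdgf1 (Cripto), the type II receptor Acvr2b, the convertase Pcsk6 (PACE4) and the 2 inhibitors Lefty1 and Lefty2. They were picked by name as genes of 1 pathway, with earlier results of these data known. All 7 passed the filter on low counts in every comparison.

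RNAseq was done on neuroepithelial (neural tube) organoids, epithelial structures with a lumen that grow clonally in Matrigel, a basement membrane gel, from mouse R1 embryonic stem (ES) cells in N2B27, a serum-free medium. One group was taken at day 2, which is 48 h after seeding and before any treatment. The untreated groups then stayed in N2B27, the RA-treated groups received N2B27 with 250 nM all-trans RA, and both were taken at 8 and 18 h, at 30, 42 and 54 h, and at 66 and 78 h after that. By the labels all 15 groups came from 1 wild-type line, each with 3 biological replicates, so 45 libraries in all. A treatment note gives the dose in micromolar and the last times slightly differently; the dose of the design text and the times of the sample titles are used.

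The libraries held between 17298632 and 39688686 counts, so that 3 counts corresponded to between 0.0756 and 0.173 CPM, the count scaled by library size. Markers of the neural progenitor list were detected throughout: the summed level of Sox1, Sox2, Sox3, Pax6, Nes and Hes5 was 484 ± 10.2 CPM (SD, n = 3) at day 2, 893 ± 53.0 CPM in untreated and 991 ± 78.1 CPM in RA-treated organoids at 78 h. In untreated organoids its mean was 414, 447 and 455 CPM at 8, 18 and 30 h. The sum alone does not show that neural progenitors were present at day 2. Primed epiblast markers (Fgf5, Otx2, Pou3f1, Pou5f1, Utf1 and Dnmt3b) were highest at day 2, with a sum of 3771 ± 179 CPM, and lowest at RA 54 h, with 188 ± 46.8 CPM. The 6 mesoderm and primitive streak markers never summed to more than 21.8 CPM in a library and the 6 endoderm markers never to more than 29.8 CPM. The mean level of the 4 Y-chromosome genes Ddx3y, Eif2s3y, Kdm5d and Uty was 1.22 to 3.73 CPM per gene in 6 libraries. These were RA 8 h replicate 3, all 3 untreated 30 h libraries, and RA 30 h replicates 1 and 3. In the other 39 it was 22.6 to 89.9 CPM per gene. The labels do not say whether these 6 came from another culture of the line. RA 8 h replicate 3 and RA 30 h replicate 2 stood apart from the other libraries of their comparisons in these genes. RA 30 h replicate 2 also differed from replicates 1 and 3 in its marker sums. Its endoderm sum was 27.5 CPM beside 4.71 and 4.85 CPM. Its neural progenitor sum was 608 beside 841 and 784 CPM, and its epiblast sum 555 beside 412 and 413 CPM. Several results at 8 h, and that of Nodal at 30 h, are also given without these libraries. At 30 h all 3 untreated and 2 of the 3 RA-treated libraries were among the 6. For every member a high or low untreated mean or ratio at 30 h relative to other times therefore rests on them. An RA-treated one rests on them for 2 of its 3 libraries. The part of the 6 libraries in such values was not tested.

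Levels are CPM scaled by TMM, a normalization that corrects for differences in library composition. A gene was called in a comparison when edgeR's quasi-likelihood test gave a Benjamini-Hochberg adjusted p under 0.01 over all genes tested and the log2 fold change was beyond 1 in either direction, and "rose" and "fell" are used only for calls. In bulk libraries, fewer cells that express a gene and less RNA of it per cell cannot be told apart.

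Lefty1 and Lefty2 are near-copies of each other, and their sequences bear on how far their counts can be separated. Both lie on chromosome 1 on the plus strand, Lefty2 at chr1:180893108-180899103 and Lefty1 at chr1:180935022-180938400 (GRCm38), with 35918 bases between them and 4 exons each. Of the 75-base windows a read could cover, 197 of 1682 in Lefty1 transcripts (11.7%) and 197 of 2535 in Lefty2 transcripts (7.77%) occur letter for letter in the other gene. In the coding sequence, 173 of 1033 windows of Lefty1 were identical in Lefty2 and the median window differed at 3 bases. A window in exon 2 (coding bases 272 to 346; chr1:180936568-180936642 in Lefty1 and chr1:180894156-180894230 in Lefty2) shows a stretch in which a read cannot be placed:
Lefty1 and Lefty2: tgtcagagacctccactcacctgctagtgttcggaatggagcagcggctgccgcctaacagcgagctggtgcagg
The coding window in which the genes differ most lies in exon 1 (coding bases 51 to 125; chr1:180935160-180935234 in Lefty1 and chr1:180893234-180893308 in Lefty2). Capitals mark its 23 bases that differ, which make a read from it unambiguous:
Lefty1: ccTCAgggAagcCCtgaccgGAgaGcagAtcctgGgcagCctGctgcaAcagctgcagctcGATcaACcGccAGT
Lefty2: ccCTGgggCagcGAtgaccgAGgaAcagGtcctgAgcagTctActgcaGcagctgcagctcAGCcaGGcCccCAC

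The other members lie apart from each other in the genome. Nodal is at chr10:61417972-61425338 on the plus strand, Gdf3 at chr6:122605403-122610087 on the minus strand, Tdgf1 at chr9:110939603-110946158 on the minus strand, Acvr2b at chr9:119402118-119434995 on the plus strand and Pcsk6 at chr7:65861734-66050386 on the plus strand. No 75-base window of Nodal, Gdf3 or Acvr2b occurred in a transcript of another gene. Tdgf1 shared 161 of its 2690 windows with the pseudogene Tdgf1-ps1, and Pcsk6 shared 82 of 5257 with Gm45213, which was listed at 0 in all libraries. The count of Tdgf1-ps1 stayed at 2.90% to 5.09% of the Tdgf1 count in the 39 libraries outside RA 42 h and RA 54 h and at 4.59% to 9.32% in those 6.

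Nodal and Gdf3 fell from day 2 to 78 h in both arms. Tdgf1 fell with RA from 18 h, a time at which untreated organoids differed from day 2 by 0.10 on the log2 scale (SE 0.06) and overlapped it. Both Lefty genes had their highest mean at 30 h in both arms. Lefty1 rose with RA at 18 and 30 h, and Lefty2 fell at 30 h. At 54 h, 5 of the 7 genes were lower with RA: Nodal, Gdf3, Tdgf1, Lefty1 and Lefty2. The 30 h calls of both Lefty genes and the 54 h call of Lefty2 were lost when some single libraries were left out. Acvr2b and Pcsk6 were not called between the arms at any time. The plot of levels by time shows all 7 genes.

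**Figure D1:**
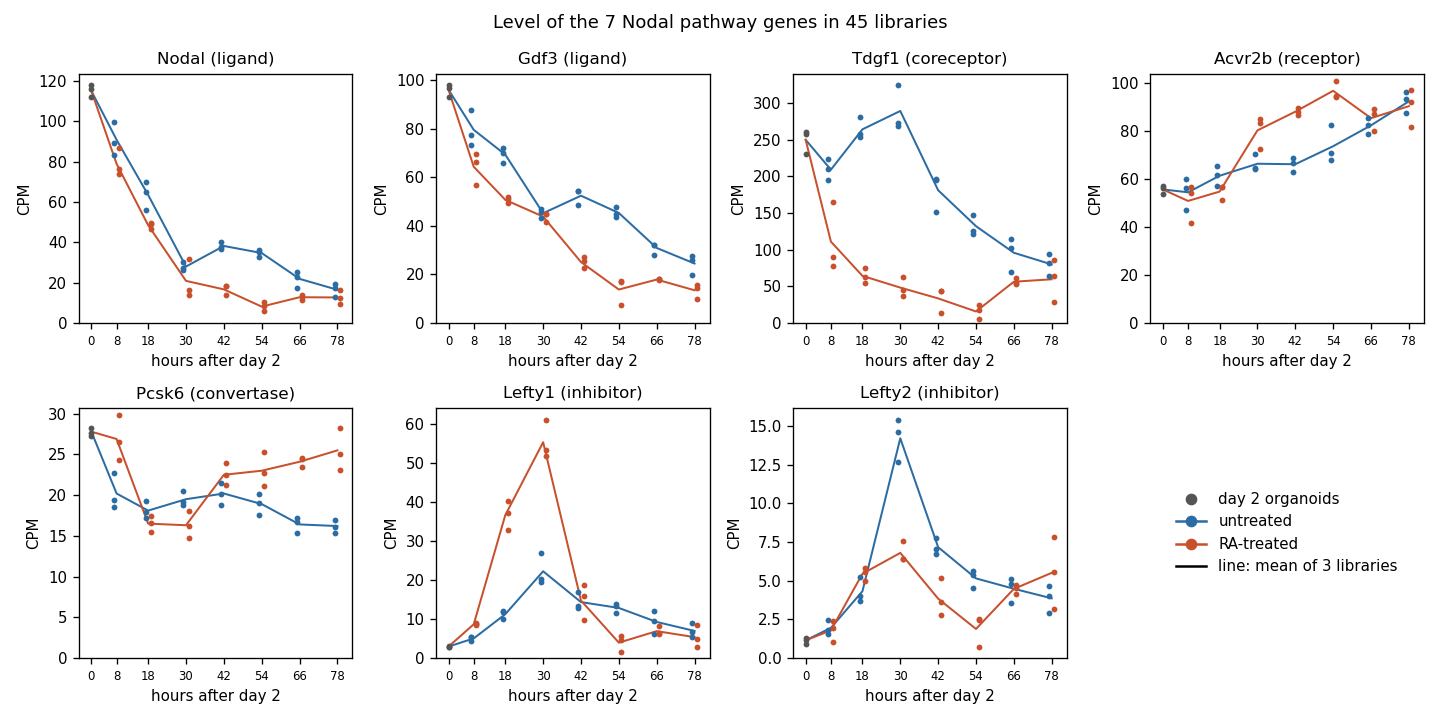
CPM (TMM-scaled, linear axis from 0) of each gene against hours after day 2; grey points are the day 2 libraries, blue points untreated, orange points RA-treated, and lines join the means of 3 libraries. The Tdgf1 points of the arms do not overlap from 8 to 66 h, the Nodal arms are farthest apart at 54 h, and Lefty1 is highest in the RA-treated libraries at 30 h (51.7 to 61.0 CPM).

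The number of the 7 genes called between RA-treated and untreated organoids was compared with the share called over all genes tested. At 8 h, edgeR called 0 of 7, against 1.8% of all genes; 4 of the 7 had an unadjusted p under 0.05 and DESeq2 called 0. At 18 h it called 2 of 7 (1 higher, 1 lower), against 10.9%, and at 30 h 3 of 7 (1 higher, 2 lower), against 8.45%. At 42 h it called 3 of 7, all lower, against 12.5%, and at 54 h 5 of 7, all lower, against 13.2%. At 66 h and 78 h it called 0 of 7, against 11.5% and 11.7% of all genes; 4 and 2 of the 7 had an unadjusted p under 0.05, and DESeq2 called 0 at both times. The median log2 fold change of the 7 genes was -1.72 at 54 h, beside 0.00 over all genes.

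**Figure D2:**
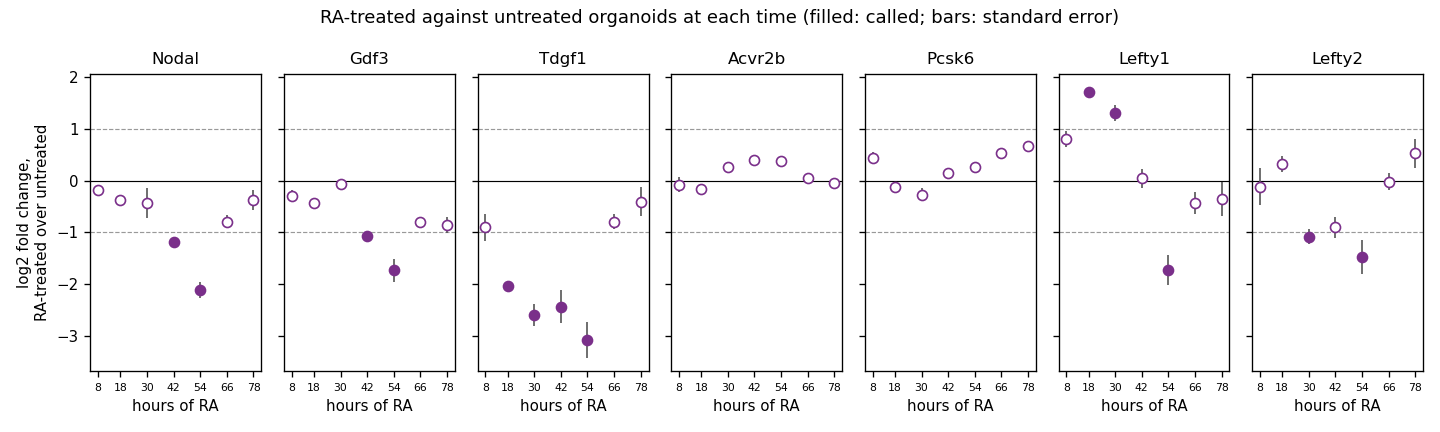
Log2 fold change of RA-treated over untreated organoids at 8 to 78 h for each gene, with standard errors as bars; filled points were called and dashed lines mark 1 and -1. Tdgf1 has 4 filled points below -1, from 18 to 54 h, while Lefty1 has 2 above 1, at 18 and 30 h, and 1 below -1, at 54 h.

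Nodal, the ligand the pathway is named after, was at its highest before treatment. Its level in the 3 day 2 libraries was 118, 112 and 116 CPM. In untreated organoids the group mean was 90.8 ± 8.14 CPM (SD, n = 3) at 8 h, 63.5 ± 6.86 at 18 h, 28.0 ± 2.05 at 30 h, 38.2 ± 2.01 at 42 h, 34.7 ± 1.72 at 54 h, 21.9 ± 4.0 at 66 h and 16.5 ± 3.34 at 78 h. The 30 h mean lay below those at 42 and 54 h by more than their SDs. With RA the means were 78.9 ± 6.76 CPM at 8 h, 48.5 ± 1.53 at 18 h, 20.9 ± 9.67 at 30 h, 16.7 ± 2.61 at 42 h, 8.15 ± 2.15 at 54 h, 12.8 ± 1.23 at 66 h and 12.7 ± 3.39 at 78 h.

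Nodal fell with RA at 42 and 54 h. At 42 h the untreated libraries held 36.6, 37.5 and 40.4 CPM and the RA-treated ones 13.7, 18.2 and 18.3 CPM, and at 54 h they held 36.2, 32.8 and 35.1 CPM against 5.91, 8.33 and 10.2 CPM. The lowest untreated library exceeded the highest RA-treated one at both times. The log2 fold change was -1.19 at 42 h (SE 0.10, adjusted p = 4.9e-06, edgeR quasi-likelihood test) and -2.11 at 54 h (SE 0.15, adjusted p = 8.2e-07). At 8 h the log2 difference was -0.18 (SE 0.09) and the groups overlapped. At 18 h it was -0.38 (adjusted p = 0.00057) with no overlap, under the fold required. At 30 h it was -0.44 (SE 0.29), where RA replicate 2 held 31.9 CPM and the other RA libraries 14.1 and 16.6 CPM; without that library it was -0.89 (adjusted p = 5.7e-07, edgeR). At 66 h it was -0.79 (adjusted p = 0.00076), again with no overlap, and at 78 h -0.37 (adjusted p = 0.13), with overlap, and neither was called.

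Gdf3 encodes a second ligand, which can act through the same coreceptor and pair with Nodal. It was at 98.1, 93.1 and 96.8 CPM at day 2. Untreated means were 79.5 ± 7.48 CPM at 8 h, 69.3 ± 3.10 at 18 h, 45.2 ± 1.85 at 30 h, 52.4 ± 3.22 at 42 h, 45.3 ± 2.15 at 54 h, 30.9 ± 2.40 at 66 h and 24.5 ± 4.09 at 78 h. RA-treated means were 64.3 ± 6.52, 50.7 ± 1.29, 43.8 ± 1.94, 25.1 ± 2.22, 13.8 ± 5.68, 17.9 ± 0.217 and 13.5 ± 3.09 CPM at the same times. Its lowest means were those at 54 and 78 h with RA, and these groups overlapped.

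Gdf3 fell with RA at the same 2 times as Nodal. At 42 h the untreated libraries held 48.7, 54.2 and 54.2 CPM and the RA-treated ones 22.8, 25.4 and 27.2 CPM, and at 54 h 43.5, 44.8 and 47.7 CPM stood against 7.29, 16.8 and 17.5 CPM. No RA-treated library reached the lowest untreated one. The log2 fold change was -1.07 at 42 h (SE 0.08, adjusted p = 1.2e-06, edgeR quasi-likelihood test) and -1.73 at 54 h (SE 0.22, adjusted p = 8.7e-05). At 30 h, in contrast, the RA-treated libraries (45.0, 44.8 and 41.5 CPM) overlapped the untreated ones (45.5, 43.2 and 46.8 CPM), with a log2 difference of -0.06 (SE 0.09). At 8 h the difference was -0.29 (adjusted p = 0.11), or -0.35 without RA replicate 3 (adjusted p = 0.004, edgeR). The differences at 18 h (-0.44), 66 h (-0.80) and 78 h (-0.86) had adjusted p from 1.2e-05 to 0.0013 without passing the fold required. Some of these lay at its edge: without RA replicate 1 the 42 h value was -1.0 and no longer called, and without RA replicate 1 or untreated replicate 3 the 78 h value was -1.0 or -1.01 and called. Per exon base within a library, the ratio of Nodal to Gdf3 was 1.39 ± 0.00169 at day 2 and 0.716 ± 0.0265 in untreated organoids at 30 h. The means of later untreated groups were 0.776 to 0.887. With RA the ratio was 0.55 ± 0.244 at 30 h and 1.09 ± 0.0885 at 78 h.

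Tdgf1, or Cripto, is the coreceptor that Nodal and Gdf3 need to engage the activin receptors. It was at 258, 259.9 and 231 CPM at day 2. In untreated organoids it was at 209 ± 13.7 CPM at 8 h, 264 ± 14.8 at 18 h, 289 ± 30.7 at 30 h, 181 ± 25.5 at 42 h, 132 ± 13.4 at 54 h, 95.8 ± 23.3 at 66 h and 79.9 ± 14.7 at 78 h. So at 18 and 30 h, when untreated Nodal was at 55.2% and 24.3% of its day 2 mean, untreated Tdgf1 was at 106% and 116% of its own. With RA it was at 111 ± 47.4 CPM at 8 h, 64.3 ± 10.9 at 18 h, 48.3 ± 13.5 at 30 h, 33.6 ± 17.6 at 42 h, 15.8 ± 9.60 at 54 h, 56.3 ± 3.97 at 66 h and 59.7 ± 28.6 at 78 h.

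Tdgf1 fell with RA at 4 of the 7 times, more than any other member. At 18 h the RA-treated libraries held 54.0, 75.6 and 63.3 CPM against 257, 253 and 281 CPM untreated, and at 30 h 44.4, 37.1 and 63.4 CPM against 273, 269 and 324 CPM. The groups were far apart at both times. The log2 fold change was -2.03 at 18 h (SE 0.10, adjusted p = 3.3e-09, edgeR quasi-likelihood test), -2.59 at 30 h (SE 0.21, adjusted p = 0.00021), -2.43 at 42 h (SE 0.32, adjusted p = 0.00012) and -3.07 at 54 h (SE 0.34, adjusted p = 2.5e-05). At 42 h the RA-treated libraries held 13.2, 43.4 and 44.0 CPM and at 54 h 5.49, 17.5 and 24.5 CPM, with replicate 1 lowest at both times. Without that replicate the values were -2.05 and -2.69. At 66 and 78 h the difference was -0.79 (adjusted p = 0.0018) and -0.41 (adjusted p = 0.26, edgeR), under the fold required, and the 78 h RA libraries ranged from 29.1 to 85.8 CPM.

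The 8 h value of Tdgf1 turned on 1 library. The RA-treated libraries held 90.6, 77.2 and 165 CPM against 195, 209.8 and 223 CPM untreated, and did not overlap them. The log2 difference was -0.90 (SE 0.26, adjusted p = 0.069, edgeR quasi-likelihood test), not called. Replicate 3, with the high value, was the RA 8 h library low in Y-chromosome genes, at a mean of 3.73 CPM per gene. Without it the value was -1.31 (adjusted p = 2.6e-09), a call. Its primed epiblast sum, 1431 CPM, was close to the 1413 and 1406 CPM of the other RA 8 h libraries. Its naive ES cell marker sum was higher (503 CPM beside 406 and 368 CPM), and its endoderm sum (7.46 CPM beside 12 and 11.6 CPM) and mesoderm sum (4.35 CPM beside 6.08 and 6.60 CPM) were lower.

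Within a library, Tdgf1 per Nodal therefore separated the arms. The ratio of counts per exon base was 1.73 ± 0.136 at day 2. At 30 h it was 8.23 ± 0.326 (7.92 to 8.57) in untreated organoids and 2.17 ± 1.10 (0.929 to 3.05) with RA. At 18 h it was 3.33 ± 0.235 untreated and 1.06 ± 0.156 with RA, with no overlap. At 66 h the ranges overlapped, at 3.21 to 3.66 untreated and 3.17 to 4.25 with RA.

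Acvr2b encodes a type II receptor that Nodal shares with activins and other ligands. It was at 56.4, 53.6 and 57.2 CPM at day 2. In untreated organoids the means ran from 54.5 ± 6.60 CPM at 8 h through 66.4 ± 3.51 at 30 h to 92.4 ± 4.49 at 78 h, and with RA from 50.9 ± 8.14 CPM at 8 h through 80.3 ± 6.74 at 30 h and 96.8 ± 3.84 at 54 h to 90.4 ± 7.82 at 78 h. The RA-treated libraries were above the untreated ones at 42 h (89.8, 86.6 and 88.0 against 63.1, 69.0 and 66.7 CPM) and at 54 h (94.7, 94.4 and 101 against 70.7, 82.6 and 67.9 CPM), with no overlap. The log2 differences, 0.40 at 42 h (SE 0.05, adjusted p = 9.3e-05, edgeR quasi-likelihood test) and 0.37 at 54 h (SE 0.08, adjusted p = 0.0019), were under the fold required. At 66 h and 78 h the arms overlapped, with differences of 0.04 (SE 0.06) and -0.04 (SE 0.07).

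Pcsk6 encodes PACE4, a convertase that can cut the Nodal precursor. It had the narrowest range of the 7 genes: group means lay between 16.2 ± 0.826 CPM (untreated 78 h) and 27.8 ± 0.508 CPM (day 2). In untreated organoids it was at 20.2 ± 2.23 CPM at 8 h and between 16.2 and 20.2 CPM later, and with RA at 26.9 ± 2.82 CPM at 8 h, 16.3 ± 1.72 at 30 h and 25.5 ± 2.59 at 78 h. At 78 h the RA-treated libraries (28.3, 25.1 and 23.1 CPM) were all above the untreated ones (16.1, 17 and 15.4 CPM). The log2 difference there was 0.66 (SE 0.09, adjusted p = 0.0001, edgeR quasi-likelihood test), not called because of its size. The difference was 0.54 at 66 h (adjusted p = 0.00015), 0.26 at 54 h (adjusted p = 0.029) and -0.27 at 30 h (adjusted p = 0.14). At 8 h it was 0.43 with no overlap (adjusted p = 0.064), or 0.49 without RA replicate 3 (adjusted p = 0.0011, edgeR).

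Lefty1, a secreted inhibitor that keeps Nodal from its receptors, was low at day 2, at 3.11, 2.66 and 2.91 CPM. Untreated means were 4.99 ± 0.649 CPM at 8 h, 11.2 ± 1.15 at 18 h, 22.2 ± 4.09 at 30 h, 14.3 ± 2.18 at 42 h, 12.8 ± 1.20 at 54 h, 9.21 ± 2.88 at 66 h and 6.90 ± 1.82 at 78 h. RA-treated means were 8.62 ± 0.236, 36.6 ± 3.74, 55.3 ± 4.99, 14.7 ± 4.50, 3.90 ± 2.05, 6.85 ± 1.05 and 5.32 ± 2.90 CPM at those times. Both arms were thus highest at 30 h, and the RA mean at 54 h was 3.90 CPM, next to 2.89 CPM at day 2.

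The direction of the Lefty1 difference turned during the course. At 18 h the RA-treated libraries held 32.7, 40.1 and 37.1 CPM against 11.7, 9.90 and 12.1 CPM untreated, and at 30 h 51.7, 53.3 and 61.0 CPM against 20.1, 19.5 and 26.9 CPM. All RA-treated libraries were higher at both times. Lefty1 rose by 1.71 on the log2 scale at 18 h (SE 0.09, adjusted p = 1.3e-08, edgeR quasi-likelihood test) and by 1.30 at 30 h (SE 0.15, adjusted p = 0.001). At 42 h the RA-treated libraries (9.77, 18.6 and 15.8 CPM) overlapped the untreated ones (13.4, 12.8 and 16.8 CPM), with a difference of 0.04 (SE 0.19). At 54 h they held 1.61, 4.53 and 5.56 CPM against 13.2, 11.4 and 13.7 CPM, all lower, and Lefty1 fell by 1.72 (SE 0.29, adjusted p = 0.00057). At 8 h the RA-treated libraries (8.42, 8.56 and 8.88 CPM) were already above the untreated ones (4.25, 5.29 and 5.44 CPM), with a difference of 0.80 (adjusted p = 0.018) that was not called. Without RA replicate 3 that difference was 0.77 (adjusted p = 0.00059, edgeR), still under the fold required. The 30 h call was lost without untreated replicate 1 (1.20, adjusted p = 0.011) or replicate 2 (1.19, adjusted p = 0.011), and with a term for earlier and later library numbers (1.20, adjusted p = 0.019, edgeR).

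Lefty2, the second inhibitor, was also low at day 2 and highest at 30 h, but reached a lower mean with RA than without. It was at 1.30, 0.905 and 1.18 CPM at day 2. Untreated means were 1.94 ± 0.465 CPM at 8 h, 4.31 ± 0.821 at 18 h, 14.2 ± 1.36 at 30 h, 7.16 ± 0.533 at 42 h, 5.14 ± 0.586 at 54 h, 4.47 ± 0.811 at 66 h and 3.85 ± 0.872 at 78 h. RA-treated means were 1.78 ± 0.705, 5.44 ± 0.427, 6.79 ± 0.692, 3.83 ± 1.22, 1.87 ± 1.02, 4.46 ± 0.325 and 5.50 ± 2.34 CPM.

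Where Lefty1 rose with RA, Lefty2 did not. At 18 h the RA-treated libraries held 4.97, 5.55 and 5.80 CPM and overlapped the untreated ones at 3.70, 3.99 and 5.24 CPM, with a log2 difference of 0.32 (SE 0.15, adjusted p = 0.089, edgeR quasi-likelihood test). At 30 h they held 6.38, 6.41 and 7.59 CPM against 12.7, 15.4 and 14.6 CPM. All were lower, and Lefty2 fell by 1.08 (SE 0.15, adjusted p = 0.0022). It also fell by 1.47 at 54 h (SE 0.33, adjusted p = 0.0036), with 0.691, 2.49 and 2.43 CPM against 5.61, 4.49 and 5.33 CPM. At 30 h the call was lost without any 1 untreated library or without RA replicate 1 (-1.04 to -1.19, adjusted p = 0.01 to 0.016), by library totals (-0.94) and with the term for library numbers (-1.18, adjusted p = 0.031). At 54 h it was lost without any 1 untreated library (-1.40 to -1.56, adjusted p = 0.011 to 0.017, edgeR). At 78 h the RA-treated libraries ranged from 3.15 to 7.82 CPM and overlapped the untreated range of 2.93 to 4.66 CPM.

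The ratio of Lefty1 to Lefty2 per exon base within a library shows this split. It was 3.86 ± 0.449 at day 2 and 2.33 ± 0.428 (1.89 to 2.74) in untreated organoids at 30 h, and with RA 10 ± 0.656 (9.49 to 10.7) at 18 h and 12.1 ± 0.208 (11.9 to 12.3) at 30 h, with no overlap between the arms. At 78 h the arms stood the other way round, at 1.39 ± 0.184 (1.25 to 1.6) with RA and 2.65 ± 0.176 (2.47 to 2.82) untreated. The Lefty2 count was lowest as a share of the Lefty1 count at RA 8 h (11.9% in 1 library) and at RA 30 h (12% to 12.4%), and 54.2% to 78.8% in untreated organoids at 30 h. If that lowest share of every Lefty1 count were stray reads set to Lefty2, Lefty2 would be at 0.221 CPM at RA 30 h and 11.6 CPM at untreated 30 h, and at 1.09 and 2.98 CPM at 18 h. Lefty2 would then be lower with RA at 18 h too. That share was itself taken from an RA-treated library, so low values in RA-treated libraries with a similar share follow from the choice. How many Lefty1 reads were set to Lefty2 was not tested.

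**Figure D3:**
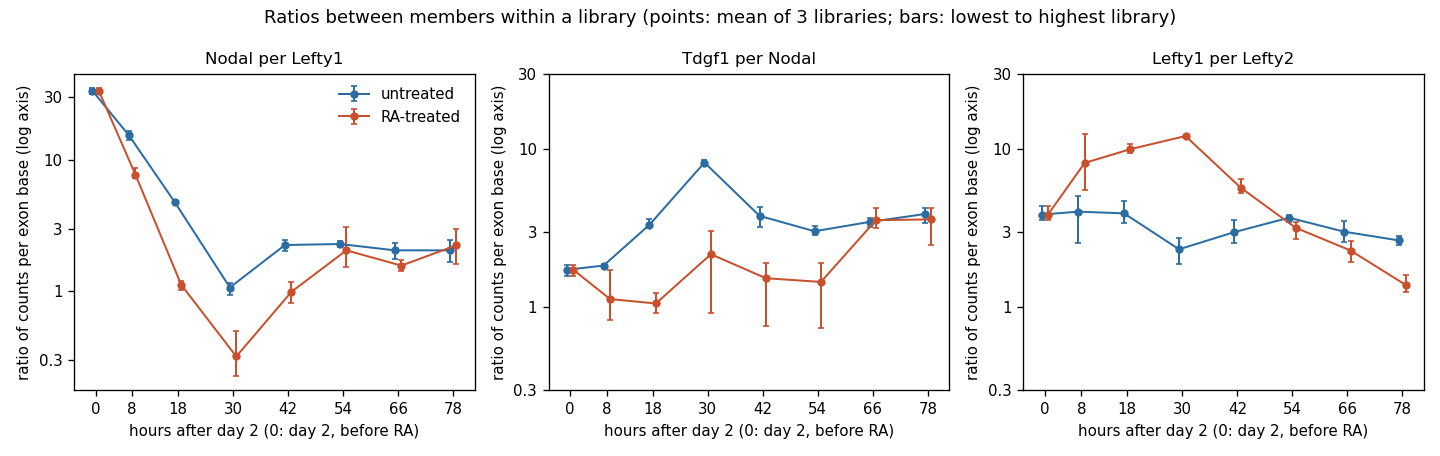
Ratios of counts per exon base between pairs of members against hours after day 2 (log axes); points are means of 3 libraries, bars run from the lowest to the highest library, blue is untreated and orange RA-treated. Nodal per Lefty1 is lowest at RA 30 h (0.228 to 0.503), Tdgf1 per Nodal is highest in untreated organoids at 30 h (7.92 to 8.57), and Lefty1 per Lefty2 is highest at RA 30 h (11.9 to 12.3).

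The ligand stood high over its inhibitor at day 2 and lost that margin by 30 h. Nodal per Lefty1, per exon base, was 33.5 ± 1.68 at day 2. It was 4.75 ± 0.102 in untreated and 1.12 ± 0.0853 in RA-treated organoids at 18 h, and 1.07 ± 0.112 against 0.320 ± 0.159 at 30 h, with no overlap at either time. The ranges were also apart at 42 h, at 2.01 to 2.46 untreated and 0.822 to 1.18 with RA. At 66 h they were narrowly apart, at 1.76 to 2.35 and 1.44 to 1.74. At 54 and 78 h the ranges of the arms overlapped, with means of 2.29 untreated and 2.05 with RA at 54 h and of 2.05 and 2.24 at 78 h.

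Set against day 2 rather than against the other arm, the calls of the 2 ligands and the coreceptor were all downward and those of the 2 inhibitors all upward. In untreated organoids edgeR called 0 of the 7 genes at 8 h (0.588% of all genes; 6 of 7 had an unadjusted p under 0.05, and DESeq2 called 0), 2 at 18 h (4.56%), 3 at 42 h (21.8%) and 5 at 78 h (34%). With RA it called 1 at 8 h (4.19%), 4 at 18 h (20.2%), 5 at 42 h (32%) and 4 at 78 h (37.4%). The 5 called in untreated organoids at 78 h were Nodal (log2 fold change -2.76, SE 0.10), Gdf3 (-1.93, SE 0.09), Tdgf1 (-1.60, SE 0.10), Lefty1 (1.28, SE 0.19) and Lefty2 (1.79, SE 0.23), with adjusted p from 4.1e-13 to 1.1e-05. With RA at 18 h the 4 were Nodal (-1.24), Tdgf1 (-1.95), Lefty1 (3.66) and Lefty2 (2.26), while untreated organoids at that time had only Lefty1 (1.97) and Lefty2 (1.95) called. The 1 gene called with RA at 8 h was Lefty1 (1.6), and Tdgf1 there was at -1.14 (adjusted p = 0.02), or at -1.55 without RA replicate 3 (adjusted p = 1.1e-09, edgeR). At 42 h with RA all members but Acvr2b and Pcsk6 were called, from -2.86 for Tdgf1 to 2.37 for Lefty1, and at 78 h Nodal (-3.14), Gdf3 (-2.80), Tdgf1 (-2.03) and Lefty2 (2.31). Comparisons with day 2 share the 3 day 2 libraries.

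Among themselves the members had different levels per kilobase of exon, and their order changed. At day 2 it was Tdgf1 (95.3 ± 6.12 CPM per kb), Nodal (55.0 ± 1.54), Gdf3 (39.6 ± 1.06), Acvr2b (14.2 ± 0.489), Pcsk6 (5.35 ± 0.0979), Lefty1 (1.65 ± 0.127) and Lefty2 (0.433 ± 0.0781), with no neighbours within their SDs. In untreated organoids at 30 h Tdgf1 led at 110 ± 11.7 CPM per kb, and Gdf3 (18.6 ± 0.765), Acvr2b (16.9 ± 0.894), Nodal (13.4 ± 0.977) and Lefty1 (12.6 ± 2.32) followed, of which Nodal and Lefty1 did not differ beyond their SDs. With RA at 30 h Lefty1 came first, at 31.5 ± 2.84 CPM per kb, before Acvr2b (20.4 ± 1.72), Tdgf1 (18.4 ± 5.16) and Gdf3 (18.1 ± 0.803), and the last 3 did not differ beyond their SDs from their neighbours. With RA at 54 h Acvr2b stood at 24.6 ± 0.978 CPM per kb and Tdgf1 (6.04 ± 3.66), Gdf3 (5.71 ± 2.35), Pcsk6 (4.44 ± 0.405) and Nodal (3.89 ± 1.02) within each other's SDs.

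Whether the effect of RA differed between times was tested as an interaction. Between 8 and 18 h edgeR called 0 of the 7 genes, against 0.341% of all genes; 3 had an unadjusted p under 0.05 and DESeq2 called 1, Lefty1 (0.91, adjusted p = 0.00056). Without RA 8 h replicate 3, edgeR called 3: Tdgf1 (-0.73), Pcsk6 (-0.64) and Lefty1 (0.93). Between 18 and 42 h it called 5 of 7, against 16.2%. In one edgeR fit of all 45 libraries only Lefty1 and Acvr2b of these were called, while Nodal (adjusted p = 0.04), Gdf3 (adjusted p = 0.056) and Lefty2 (adjusted p = 0.03) were not. The effect was lower at 42 h for Lefty1 (difference of log2 fold changes -1.65, SE 0.24, adjusted p = 0.00011), Lefty2 (-1.20), Nodal (-0.79) and Gdf3 (-0.60), and higher for Acvr2b (0.58). For Tdgf1 the difference was -0.38 (SE 0.37), with the 18 h effect already at -2.03.

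Sums of marker genes differed between the arms as well. The primed epiblast sum was 3405 to 3666 CPM in untreated and 667 to 743 CPM in RA-treated libraries at 18 h, and 1963 to 2007 against 134 to 218 CPM at 54 h. It was still lower with RA at 66 h (means of 1599.5 and 282 CPM) and 78 h (1257 and 261 CPM), where 0 members were called. At 66 h Nodal (-0.79), Gdf3 (-0.80) and Tdgf1 (-0.79) were lower and Pcsk6 (0.54) higher with no overlap, under the fold required. At 18 h Tdgf1 fell and Lefty1 rose. The 5 other members were not called there, with log2 differences from -0.44 for Gdf3 to 0.32 for Lefty2. No marker of that list was at 3 counts or fewer in every library of a group. Endoderm markers summed to 3.01 to 4.49 CPM untreated and 25.5 to 29.8 CPM with RA at 54 h, and mesoderm markers to 16.1 to 21.8 against 3.26 to 6.40 CPM. At that time neuron markers summed to 274 to 309 against 114 to 120 CPM, and naive ES cell markers to 96.5 to 108 against 70.4 to 129 CPM. At 78 h both of the latter were higher with RA. Neuron markers were at 279.9 to 288 CPM untreated and 331 to 364 CPM with RA, and naive ES cell markers at 81.1 to 109 and 132 to 211 CPM. Endoderm markers were still higher with RA at 78 h (3.3 to 3.73 and 20.5 to 22.1 CPM), and mesoderm markers overlapped. The neuron list already summed to 267 CPM at day 2. RA 54 h replicate 1, lowest for Nodal, Gdf3, Tdgf1, Pcsk6, Lefty1 and Lefty2, also had the lowest epiblast sum (134 CPM, beside 212 and 218 CPM), naive ES cell sum (70.4 beside 121 and 129 CPM) and mesoderm sum (3.26 beside 5.02 and 6.40 CPM). RA 78 h replicate 3, lowest for the same 6 genes, had an epiblast sum of 186 CPM beside 281 and 315 CPM, and was also lowest for naive ES cell markers (132 CPM) and mesoderm markers (5.59 CPM). In both libraries the neural progenitor sum was the highest of its group, at 944 and 1077 CPM. The part of these markers' cells in the results was not tested, and all 5 calls at 54 h were also made without RA replicate 1 (log2 fold changes -1.94 for Nodal, -1.44 for Gdf3, -2.69 for Tdgf1, -1.38 for Lefty1 and -1.10 for Lefty2).

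Over the 15 group means of log2(CPM + 1), Nodal and Gdf3 were the most alike members (Pearson r = 0.95) and Nodal and Acvr2b the most opposed (r = -0.94), while Lefty1 and Lefty2 had r = 0.70. Among 12435 genes, those most like a member were Alg13 for Nodal (r = 0.982), Lrmp for Gdf3 (0.980), Mxra7 for Acvr2b (0.985), Parp9 for Lefty1 (0.929), Nsdhl for Lefty2 (0.939) and Rprd1b for Pcsk6 (0.866). For Tdgf1 it was its pseudogene Tdgf1-ps1 (0.967), and then Pdp1 (0.963). Of the 442 windows of 75 bases in the Tdgf1 coding sequence, 161 were identical in Tdgf1-ps1 and 391 were within 2 mismatches of it. How many Tdgf1 reads were set to Tdgf1-ps1 was not tested. With a pseudocount of 0.1 in place of 1, Alg13 was no longer among the 3 most like Nodal, where Dpys, Sfr1 and Zfp981 stood. These are descriptions over groups that share a time course.

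Beyond the members, 39 other genes of the Nodal, activin and TGF-β pathways were read by role, of which 34 could be tested at 18 h. There 6 rose and 4 fell with RA, beside 1348 higher and 455 lower calls over all genes (10.9%), and at 54 h 6 of 33 rose and 6 fell, beside 1177 and 983 (13.2%). Gdf1, Inhba, Acvr1c, Cer1 and Gsc never passed the filter on low counts. Gdf1 was listed at 0 in all libraries; all of its exons lie within those of Cers1.

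Among the other ligands, calls with RA were all upward. Inhbb, which encodes an activin subunit, rose at 18, 42, 66 and 78 h, by 1.57 to 2.17 on the log2 scale. Its mean was 32.3 CPM with RA and 5.65 CPM untreated at 8 h, a difference of 2.52 with adjusted p = 0.027 (edgeR quasi-likelihood test). Gdf11, a ligand of the activin receptors, rose at 5 times from 30 h on, by 1.20 to 1.43, and Tgfb2 at 4 times from 42 h on, by 1.97 to 2.09. Tgfb3 rose from 18 to 54 h, by 1.22 to 3.03; at 18 h it had 3 to 4 counts in an untreated library.

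Most receptors and transducers stayed within the fold required at every time. Acvr1b, the type I receptor of Nodal, differed by -0.05 to 0.20 on the log2 scale at the 7 times and Acvr2a, whose exons overlap Orc4 on the other strand, by 0.24 to 0.58, with no call. Furin, a further convertase for Nodal, was 0.30 to 0.97 higher with RA and never called. Smad2 differed by 0.32 to 0.55, Smad3 by 0.29 to 0.84 and Smad4 by -0.13 to 0.02. Foxh1, the DNA-binding partner of the Smads at Nodal targets, fell at 42, 54, 66 and 78 h, by 1.52 to 2.06. Its mean at 54 h was 49.1 CPM untreated and 12 CPM with RA. Tgfbr2, the type II receptor for TGF-β, rose at 30 h (1.58) and 42 h (1.13).

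Among the inhibitors, Fst was called at all 7 times. It encodes follistatin, which binds activin and not Nodal, and it fell by 2.62 to 4.18, from 111 CPM untreated to 6.41 CPM with RA at 54 h. Fstl3, a relative of Fst, rose at 54, 66 and 78 h, by 1.48 to 3.22. Of the intracellular repressors, Ski rose at 8, 18 and 30 h (1.16 to 1.47), Skil fell at 42 and 54 h (-1.06 and -1.54), Smad7 rose at 66 and 78 h (1.38 and 1.61) and Pmepa1 rose at 8, 18 and 78 h (1.20 to 1.67).

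Targets went both ways. Otx2 fell at all 7 times, by 2.96 to 5.00, from a mean of 249 CPM untreated to 14.4 CPM with RA at 18 h. Eomes fell at 18, 42 and 54 h (1.14 to 1.75) and T, the brachyury gene, at 18, 42, 54, 66 and 78 h (1.88 to 3.25), both from levels under 10 CPM in untreated organoids at those times. Lhx1 rose at 6 times (2.48 to 5.63) and was highest at RA 18 h, at 15 CPM; its untreated means were 0.104 to 0.547 CPM, with 1 to 4 counts in a library at 30 h, so the size of its folds rests on few counts. Foxa2, which also marks the floor plate and endoderm, rose at 18, 42, 54, 66 and 78 h (1.89 to 5.18). Otx2 is also one of the epiblast markers, Eomes and T are among the mesoderm markers, and Foxa2 is among the endoderm markers given above.

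**Figure D4:**
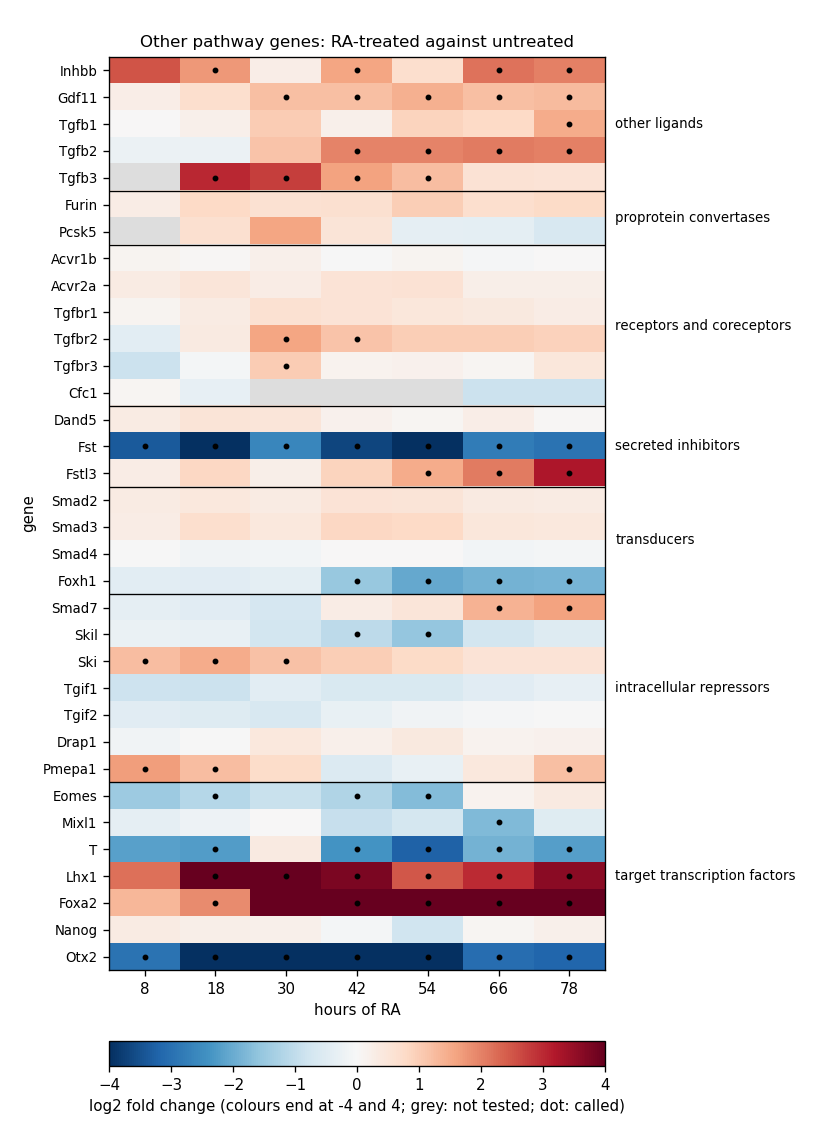
Log2 fold change of RA-treated over untreated organoids (colour, from -4 to 4) for the 34 other pathway genes tested at 1 time or more, by role, against hours of RA; dots mark calls and grey marks genes not tested. Ligands have upward calls only, the transducers no call but Foxh1 downward from 42 h, and Fst and Otx2 have a downward call at all 7 times.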

How the data were processed

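Counts per gene in 45 libraries were deposited by the authors, who made them from 75-base single-end reads of directional poly(A) libraries: trimming with Trim Galore 0.5.0, removal of abundant sequences with Bowtie 2 2.3.4.1, alignment to GRCm38 with STAR and counting with featureCounts (Subread 1.6.2). The strand setting is not given in the sources used here. Of 893 genes whose every transcript is identical to one of another gene, 854 were listed at 0 in all libraries, so reads with several equal positions were hardly counted. The 7 genes, the pathway list and the markers were chosen with earlier results of these data known. Symbols matched 54409 of 54532 identifiers.

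edgeR 4.0.16 in R 4.3.3 was run on the libraries of each comparison (quasi-likelihood test, TMM, filterByExpr with a minimum count of 10). The interaction tests used no fold minimum. DESeq2 1.42.0, other scalings and filters, a replicate block and leaving out each library were alternatives. The fits were first tested on simulated data. Windows and positions came from GENCODE M21. Beyond the members, pathway genes called at 2 or more of the 7 times were named, plus Smad2, Smad3, Smad4, Foxh1, Acvr1b, Acvr2a and Furin; for likeness, the gene of highest r (2 for Tdgf1) among those with at least 5 CPM in their highest group. One further gene of the pathway list was left out and is not reported here, which leaves 39. Genes named as never tested were chosen after their values were seen. Replicate numbers paired the arms only at 30 h (correlations 0.13, 0.30 and 0.28) and 66 h (0.64, 0.31 and 0.30), by the data and not by a stated batch. Values after ± are SDs over the 3 libraries of a group, and SEs come from the edgeR fits.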

Additional observations from a re-analysis of the deposited data

Results flagged for a closer look

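The effect of RA differed between 18 and 42 h, by the interaction test in edgeR, for 5 of the 7 genes, against 16.2% of all genes. In one fit of all 45 libraries 2 of the 5, Lefty1 and Acvr2b, were called. The effect at 42 h minus that at 18 h was -0.79 on the log2 scale for Nodal, -0.60 for Gdf3, -1.65 for Lefty1 and -1.20 for Lefty2, and 0.58 for Acvr2b. For Lefty1 the effect was 1.71 at 18 h and 0.04 at 42 h, and for Acvr2b it was -0.16 and 0.40.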

How the results depend on the processing

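Calls of the 7 genes were recounted under each alternative. With the replicate number as a block, the count was the same as without it in all 17 comparisons, for example 3 at 30 h and 0 at 66 h, the 2 times at which the numbers paired the arms, and no call of a gene changed. RLE size factors, library totals and at least 10 counts in every library left every count of called genes within 1.5 times.

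An adjusted p under 0.05 with no fold minimum gave 1 gene for RA against untreated at 8 h, 4 at 18 h, 5 at 42 h, 4 at 66 h and 2 at 78 h, 5, 6 and 7 for untreated against day 2 at 8, 18 and 42 h, 4 for RA at 8 h against day 2, and 1 for the 8 to 18 h interaction. A term for earlier and later library numbers left 1 call at 30 h (Tdgf1), where all 3 untreated libraries and RA replicate 1 have the earlier numbers. RA at 8 h against day 2 gave 2 calls with no filter, by DESeq2 and in one fit of all 45 libraries, all from Tdgf1 being added. The 8 to 18 h interaction gave 2 with no filter and 1 by DESeq2, and the 18 to 42 h interaction 2 in one fit of all 45 libraries, where Nodal (adjusted p = 0.04), Gdf3 (adjusted p = 0.056) and Lefty2 (adjusted p = 0.03, edgeR) were lost. The causes were not tested.

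With 1 library left out, called genes for RA against untreated ranged from 0 to 1 at 8 h and 1 to 3 at 30 h. They ranged from 2 to 4 at 42 h, 4 to 5 at 54 h and 0 to 1 at 78 h. With RA against day 2 they ranged from 1 to 2 at 8 h and 4 to 5 at 78 h. For the interactions they ranged from 0 to 3 (8 to 18 h) and 4 to 5 (18 to 42 h). Of 798 log2 fold changes recomputed in this way, 19 changed sign, 12 lost a call and 9 gained one. Those that changed sign were uncalled and near 0: for RA against untreated, Acvr2b at 8 h (-0.18 to 0.04) and 78 h (-0.08 to 0.03), Lefty1 at 42 h (-0.16 to 0.26) and Lefty2 at 8 h (-0.38 to 0.17) and 66 h (-0.16 to 0.09); against day 2, Acvr2b in untreated organoids at 8 h (-0.10 to 0.09) and with RA at 8 h (-0.19 to 0.02) and 18 h (-0.05 to 0.04) and Pcsk6 with RA at 8 h (-0.10 to 0.05); and Acvr2b in the 8 to 18 h interaction (-0.21 to 0.02).

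By library totals the sign changed for Gdf3 at 30 h (0.08) and Lefty2 at 66 h (0.04) between the arms, against day 2 for Acvr2b in untreated organoids at 8 h (0.00) and with RA at 18 h (0.18) and for Pcsk6 with RA at 8 h (0.05) and 78 h (0.07), and for Acvr2b in the 8 to 18 h interaction (0.00). With at least 10 counts in every library Acvr2b with RA at 18 h was at 0.02. Lefty2 less the lowest share of Lefty1 counts, an alternative chosen after the data were seen, gave -1.45 at 18 h and 0.11 at 66 h, of the other sign than the counts as deposited. The share came from an RA-treated library, so the 18 h value follows in part from that choice. Depth limited Lefty2 most, with 18 counts (0.691 CPM) in its lowest library, RA 54 h replicate 1, where 3 counts give 0.121 CPM.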
